A study of Mus musculus with 6 samples.

Results

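The 10 genes described here, Trem2, Tyrobp, Apoe, Lpl, Gpnmb, Spp1, Lgals3, Fabp5, Fabp4 and Plin2, belong to the TREM2 and lipid-associated program of macrophages. They were picked by symbol among the 55291 rows of the count table, where each of the 10 has a row, and their counts were compared between WT and PYK2 KO bone marrow-derived macrophages (BMDMs). All 10 passed the filter on low counts that left 9815 genes for testing, so none had to be set aside.

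BMDMs are macrophages that bone marrow cells become in culture with M-CSF. There were 3 WT and 3 PYK2 KO libraries from mice labelled C57BL/6, and RNA was taken on day 7 with no cytokine other than the L929-conditioned medium that supplies M-CSF. The PYK2 KO mice lack the tyrosine kinase PYK2, encoded by Ptk2b, in all cells rather than only in macrophages, and ages and sexes are not given in the sources used here. The libraries are of a bulk form of MARS-seq, a method that reads the 3′ ends of polyadenylated transcripts. Bone marrow was taken from 3 mice of each genotype, and the 3 libraries of a genotype are biological replicates. The WT libraries carry the numbers 1, 5 and 6 and the PYK2 KO libraries 2, 3 and 4, and their totals ran from 2857097 to 3917207 counts. Levels are given in CPM, which are counts divided by the TMM-adjusted library size.

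TREM2 is a surface receptor that binds lipids, lipoproteins and cell debris, and it signals through the adaptor TYROBP (DAP12), whose tyrosine motif recruits the kinase SYK. Macrophages that take up much lipid, in fat tissue, in atherosclerotic plaques and in tumors, share a program that includes TREM2, lipid-binding proteins, galectin-3, osteopontin and GPNMB. Macrophages of this kind have been described in mice and in humans.

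Ptk2b was checked first, as the deleted gene. It had 737, 701 and 568 counts in WT libraries 1, 5 and 6 and 71, 64 and 69 in PYK2 KO libraries 2, 3 and 4, a log2 fold change of -3.15 (standard error 0.10). Of 8 macrophage markers, among them Csf1r, Adgre1, Cd68 and Itgam, all 8 were tested and 0 differed at an adjusted p-value under 0.05 in edgeR's quasi-likelihood test (0 also at an unadjusted p-value under 0.05), with a summed level of 29147 to 29897 CPM in the WT libraries and 30334 to 31331 CPM in the PYK2 KO ones. Apart from genotype, the libraries varied along a first component that held 31.1% of the remaining variance. WT library 1 and PYK2 KO library 4 were at one end and WT library 6 and PYK2 KO library 2 at the other. The genotype means were removed before the component was taken, so each genotype has libraries at both ends by construction. This does not show that the genotypes were balanced.

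Over all 9815 genes, 25 genes (0.255%) passed the adjusted p-value of 0.05, of which 11 (0.112%) were higher and 14 (0.143%) lower in PYK2 KO BMDMs. Among the 10 genes of the program, 1 passed, which was Spp1, and it was higher in PYK2 KO BMDMs. The 10 genes and the lists below were chosen with earlier results of these data known. The shares over all genes are therefore given for scale, and no test against them was made. The other 9 did not pass, and in each of them the libraries of the genotypes overlapped, as they did in all but 10.2% of the genes tested (5.17% with the PYK2 KO libraries higher and 5.07% with them lower). Their intervals bound the difference. The lowest bound was a level 18.6% lower in PYK2 KO BMDMs (Apoe) and the highest a level 28.6% higher (Fabp4). Of the 10 fitted changes 6 were below 0, against 49.5% of all genes tested, and the median log2 fold change was -0.01, against 0.0019 over all genes tested. In whole-culture RNA a change in the number of cells that make a transcript and a change in the amount per cell cannot be told apart.

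**Figure D1:**
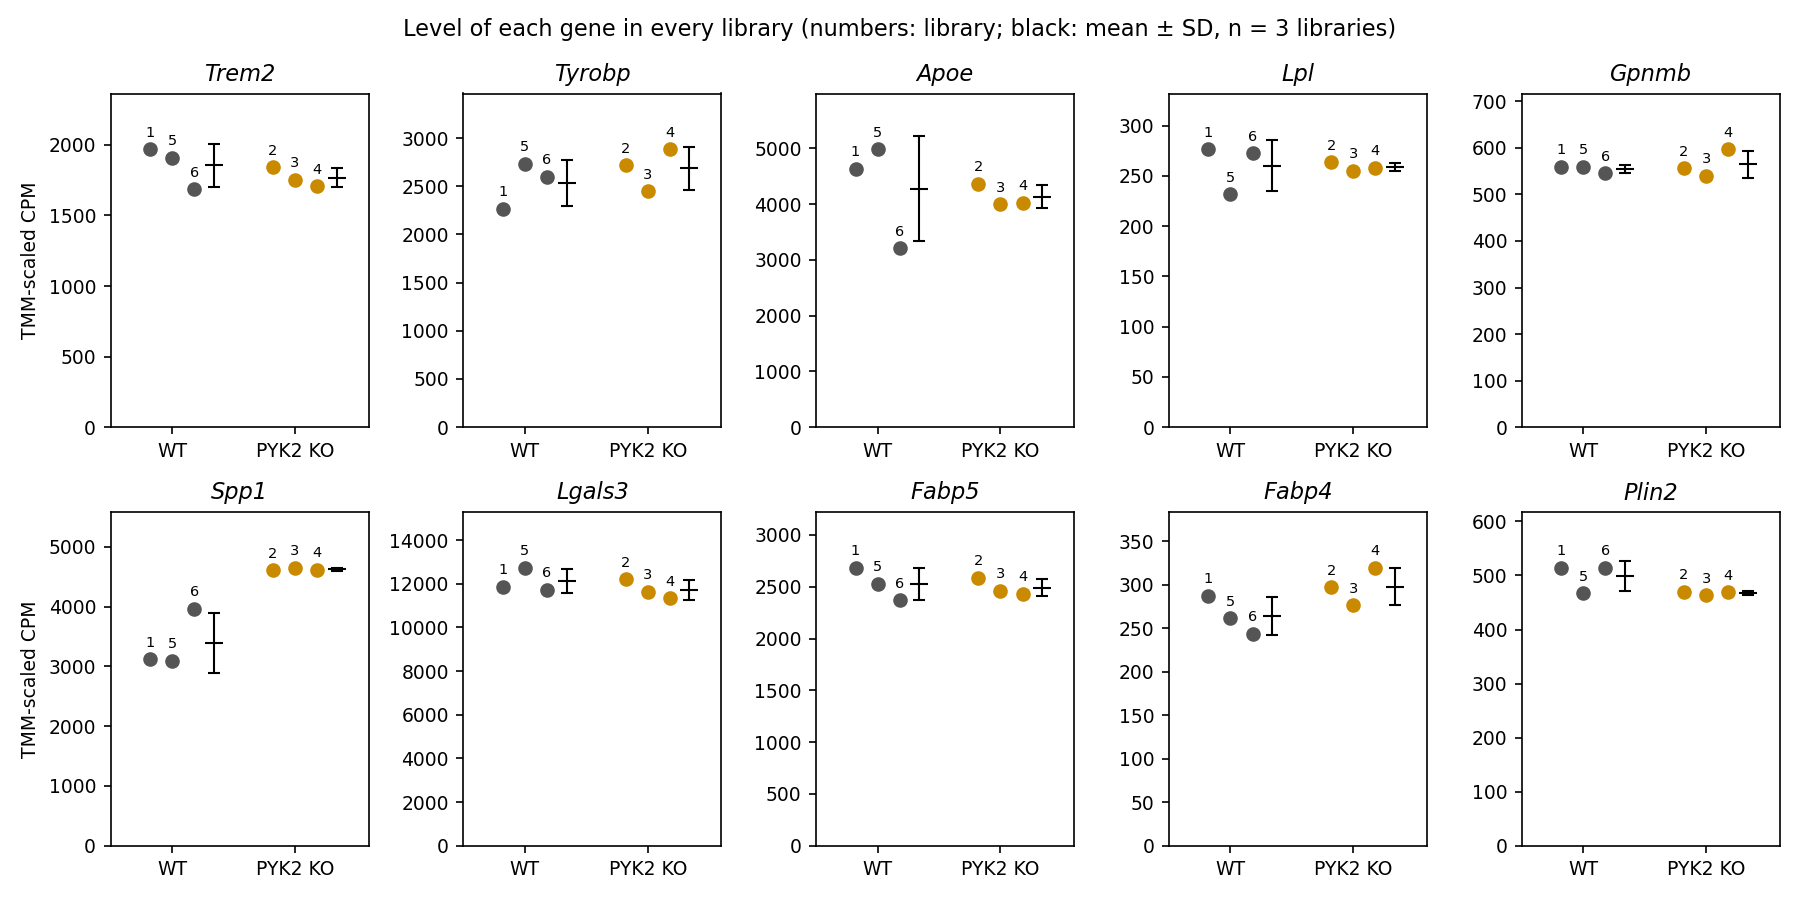
Level in TMM-scaled CPM of each of the 10 genes in the 3 WT (gray) and 3 PYK2 KO (gold) libraries, on axes that start at 0. Numbers name the library, and the black bar is the mean with its SD over 3 libraries. Only for Spp1 do the 3 PYK2 KO points lie apart from the 3 WT points, with 4609.8 CPM as the lowest PYK2 KO value and 3965 CPM as the highest WT value.

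Spp1 encodes osteopontin, a secreted glycoprotein that binds integrins and CD44 and acts in adhesion, migration and bone remodeling. The gene maps to chromosome 5 from 104435118 to 104441050 on the plus strand (GENCODE M21, GRCm38). Its counts were 12228, 11045 and 11313 in WT libraries 1, 5 and 6 and 14369, 13435 and 15488 in PYK2 KO libraries 2, 3 and 4. After scaling this was 3123, 3092 and 3965 CPM in the WT libraries and 4609.8, 4654 and 4616 CPM in PYK2 KO. The 3 PYK2 KO values lay close together, with a coefficient of variation of 0.513%, while the WT values spread by 14.6%, because WT library 6 stood between the other WT libraries and the PYK2 KO libraries. Spp1 rose from 3393 ± 496 CPM in WT to 4627 ± 23.7 CPM in PYK2 KO BMDMs (mean ± SD, n = 3 libraries each), which is 36.4% higher by the fit, with a 95% interval from 20.1% to 54.8%. The log2 fold change was 0.45 with a standard error of 0.09 (adjusted p = 0.0430, edgeR, Benjamini-Hochberg over all genes tested), and Spp1 ranked 21 of the 9815 genes by p-value. The genotypes did not overlap, for which a two-sided exact permutation test of 3 against 3 libraries can at best give p = 0.1.

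The call for Spp1 was close to the threshold and was lost in most fits that left out a library. Without WT library 6 the log2 fold change was 0.57 (adjusted p = 0.000454, edgeR). Leaving out any other library kept the direction but not the call. The log2 fold change was 0.39 without WT library 1 (adjusted p = 0.116, edgeR), 0.38 without WT library 5 (adjusted p = 0.411), 0.45 without PYK2 KO library 2 (adjusted p = 0.0858), 0.44 without PYK2 KO library 3 (adjusted p = 0.193) and 0.45 without PYK2 KO library 4 (adjusted p = 0.157). With the other 9 settings it was between 0.44 and 0.46 and passed in each.

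The 250 bases before the first RefSeq start of Spp1 and before the start of Trem2 are shown because Spp1 was the gene of the program that changed and Trem2 is the receptor the program is named for (RefSeq sequences, build GRCm38.p6, both on the plus strand). Spp1 was taken from chr5:104434861-104435110 and Trem2 from chr17:48346151-48346400. Capitals mark matches, on either strand, to the letters CACGTG (E-box), CATGTG (M-box), AGGTCA (a word bound by nuclear receptors), TGAGTCA (AP-1) and GAGGAA (the core word of PU.1, a factor of the macrophage lineage), and no match overlapped another.
Spp1: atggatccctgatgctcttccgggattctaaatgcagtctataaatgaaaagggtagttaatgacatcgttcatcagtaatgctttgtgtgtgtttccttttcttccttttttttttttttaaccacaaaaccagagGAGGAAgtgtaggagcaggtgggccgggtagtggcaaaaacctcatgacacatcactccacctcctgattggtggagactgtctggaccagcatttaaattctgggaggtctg
Trem2: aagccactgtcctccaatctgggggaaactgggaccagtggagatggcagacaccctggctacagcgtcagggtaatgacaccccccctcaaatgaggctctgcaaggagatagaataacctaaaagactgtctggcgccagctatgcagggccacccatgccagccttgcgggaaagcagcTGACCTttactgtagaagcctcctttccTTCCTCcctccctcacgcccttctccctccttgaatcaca
The Spp1 window held GAGGAA once, 113 bases before the start. Trem2 held the reverse complement of AGGTCA 68 bases and that of GAGGAA 40 bases before the start. GAGGAA was found in 23.3% and AGGTCA in 14.0% of the 32851 windows of that length, so these matches are common, and a match of letters does not show that a factor binds. Windows were at hand for 6 of the 10 genes (9 windows), of which 4 windows held GAGGAA, 2 held AGGTCA and 0 held the other words, which occurred in 6.0% (CACGTG), 12.3% (CATGTG) and 4.5% (TGAGTCA) of all windows. Tyrobp, Lpl, Fabp4 and Fabp5 had no window.

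Trem2 maps to chromosome 17 from 48346401 to 48354147 on the plus strand. Its level was 1970.0, 1907 and 1685 CPM in WT libraries 1, 5 and 6 and 1841, 1753 and 1707 CPM in the PYK2 KO ones 2, 3 and 4, so all 3 PYK2 KO values lay within the WT range. The means were 1854 ± 149.8 and 1767 ± 67.9 CPM (mean ± SD, n = 3 libraries each), with a log2 fold change of -0.07 (95% interval from -0.23 to 0.09, adjusted p = 0.954, edgeR). A fall in Trem2 level of more than 14.9% or an increase of more than 6.78% lies outside this interval.

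Tyrobp, the signaling partner of TREM2 and of several other receptors, is on chromosome 7 from 30413760 to 30417585. It was at 2266, 2736 and 2597 CPM in the WT libraries and 2720.2, 2449 and 2886 CPM in the PYK2 KO ones, and these ranges overlapped over most of their width. The log2 fold change was 0.08 (95% interval from -0.09 to 0.26, adjusted p = 0.947, edgeR). Its 3′ end faces that of Hcst, which encodes the related adaptor DAP10, across 126 bases on the other strand, and whether counting used strand is not given in the sources used here. Hcst was at 82.9 ± 3.19 CPM in the WT libraries and 79.5 ± 9.48 CPM in PYK2 KO BMDMs (mean ± SD, n = 3 libraries each), a log2 fold change of -0.06 (adjusted p = 0.984, edgeR), so neither adaptor differed beyond the spread between libraries.

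Apoe encodes apolipoprotein E, a ligand of TREM2 and of lipoprotein receptors that carries cholesterol out of macrophages. It maps to chromosome 7 from 19696109 to 19699188 on the minus strand. Apoe varied most among the 10 genes within a genotype, with 4631, 4987 and 3206 CPM in WT libraries 1, 5 and 6, a coefficient of variation of 22.04%, against 4366, 3998 and 4026 CPM in the PYK2 KO ones 2, 3 and 4 (4.96%). WT library 6, which had the highest Spp1 level of the WT libraries, had the lowest Apoe level of all 6. The log2 fold change was -0.05 (95% interval from -0.30 to 0.20, adjusted p = 0.993, edgeR), and without WT library 6 it was -0.22 (adjusted p = 0.510), while without WT library 5 it was 0.08. The direction of the Apoe difference thus changed with the libraries used.

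Lpl encodes lipoprotein lipase, which frees fatty acids from triglyceride-rich lipoproteins, and maps to chromosome 8 from 68880491 to 68907448. It was at 277, 231 and 273 CPM in the WT libraries and 263, 255 and 258 CPM in the PYK2 KO ones, with the PYK2 KO values inside the WT range and a log2 fold change of -0.01 (95% interval from -0.19 to 0.18, adjusted p = 0.999, edgeR). Plin2 encodes perilipin 2, a coat protein of lipid droplets, and maps to chromosome 4 from 86648386 to 86670060 on the minus strand. Its level was 515, 467 and 514 CPM in the WT libraries and 469.7, 463 and 469 CPM in the PYK2 KO ones, a log2 fold change of -0.09 (95% interval from -0.26 to 0.07, adjusted p = 0.935, edgeR). In both genes WT library 5 stood below the other WT libraries, and the PYK2 KO libraries were closely spaced, with coefficients of variation of 1.59% for Lpl and 0.752% for Plin2 against 9.60% and 5.47% in WT.

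Fabp4 and Fabp5 encode cytosolic fatty acid-binding proteins and map to chromosome 3, Fabp5 from 10012548 to 10016607 on the plus strand and Fabp4 from 10204088 to 10208576 on the minus strand, 187.5 kb apart. Fabp4 was at 287, 261 and 244 CPM in the WT libraries and 297, 276 and 319.5 CPM in the PYK2 KO ones. PYK2 KO libraries 2 and 4 lay above all WT values and library 3 lay within them. Fabp4 had the smallest p-value of the 9 genes that did not pass, with a log2 fold change of 0.17 (95% interval from -0.02 to 0.36, adjusted p = 0.880, edgeR). Fabp5 was at 2685, 2529 and 2368 CPM in the WT libraries and 2585, 2462 and 2431 CPM in the PYK2 KO ones, a log2 fold change of -0.02 (95% interval from -0.17 to 0.13, adjusted p = 0.993, edgeR), so these neighbors had intervals that overlap.

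Adipocytes also use Fabp4, Lpl and perilipins, and the marker list for adipocytes was at 0 counts throughout. All 7 of its genes, Adipoq, Lep, Plin1, Cidec, Cfd, Retn and Pck1, had 0 counts in each of the 6 libraries.

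Gpnmb encodes a transmembrane glycoprotein of lysosomes and the cell surface that marks lipid-laden macrophages, and maps to chromosome 6 from 49036546 to 49070929. It was at 559.5, 559.8 and 545 CPM in the WT libraries and 557, 540.4 and 597 CPM in the PYK2 KO ones, and PYK2 KO library 4 alone stood above the WT range. The WT mean was 555 ± 8.26 CPM (mean ± SD, n = 3 libraries) and the log2 fold change 0.03 (95% interval from -0.14 to 0.19, adjusted p = 0.993, edgeR). Lgals3 encodes galectin-3, a lectin that binds β-galactosides, and maps to chromosome 14 from 47367751 to 47386160, the chromosome that also carries Ptk2b. It was at 11864, 12743 and 11739 CPM in the WT libraries and 12219, 11635 and 11334 CPM in the PYK2 KO ones. The genotypes overlapped, and the log2 fold change of -0.05 had the narrowest interval of the 10 genes, from -0.17 to 0.08 (adjusted p = 0.964, edgeR).

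**Figure D2:**
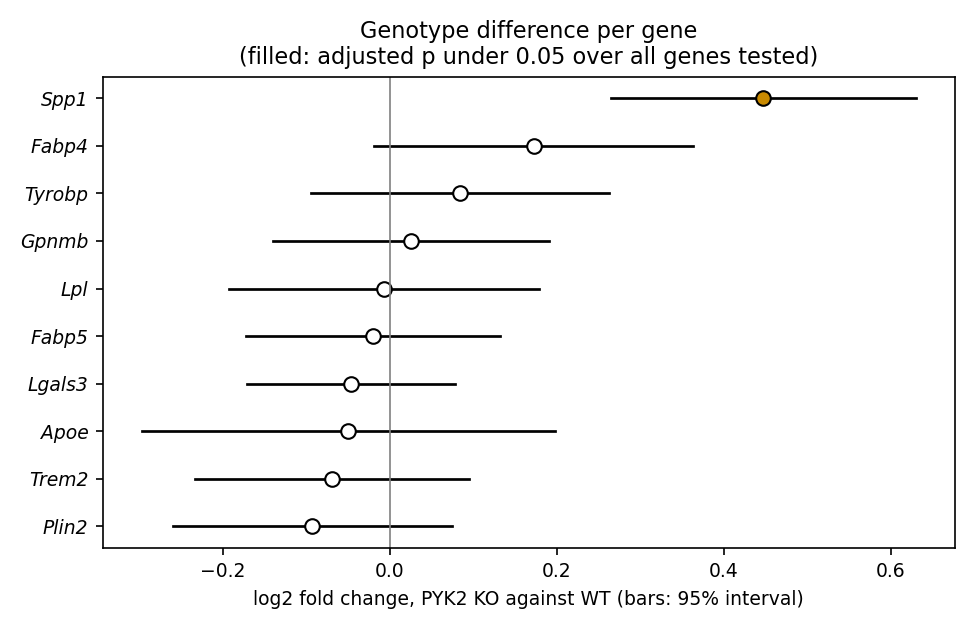
Log2 fold change of PYK2 KO against WT BMDMs for the 10 genes, with 95% intervals from edgeR's quasi-likelihood fit. The filled point, Spp1 at 0.45, passed the adjusted p-value of 0.05, and the intervals of the 9 open points include 0.

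Together the 10 genes took 2.82%, 2.89% and 2.71% of all counts in WT libraries 1, 5 and 6 and 2.94%, 2.85% and 2.9003% in PYK2 KO libraries 2, 3 and 4, and these shares overlapped. Without Spp1 the share of the other 9 genes was 2.47% ± 0.141 in WT and 2.43% ± 0.0526 in PYK2 KO BMDMs (mean ± SD, n = 3 libraries each).

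Over the 6 libraries, Trem2 and Fabp5 had the highest Pearson's r of the 45 pairs, 0.93 (exact permutation p = 0.00833, Benjamini-Hochberg adjusted p = 0.375 over 45 pairs), with Spearman's rho of 0.94 (exact permutation p = 0.0167, adjusted p = 0.375). Leaving out the libraries farthest from the median of Trem2, WT libraries 1 and 6, gave r = 0.81. Of the 45 pairs 23 had r above 0. With 6 libraries a single pair cannot pass after adjustment over 45 pairs, even at a perfect correlation. The points share library and scaling, so these values only describe the libraries. Of the 10 genes 6 (Trem2, Apoe, Fabp5, Fabp4, Gpnmb and Lgals3) had their lowest WT value in library 6, and Spp1 had its highest WT value there.

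**Figure D3:**
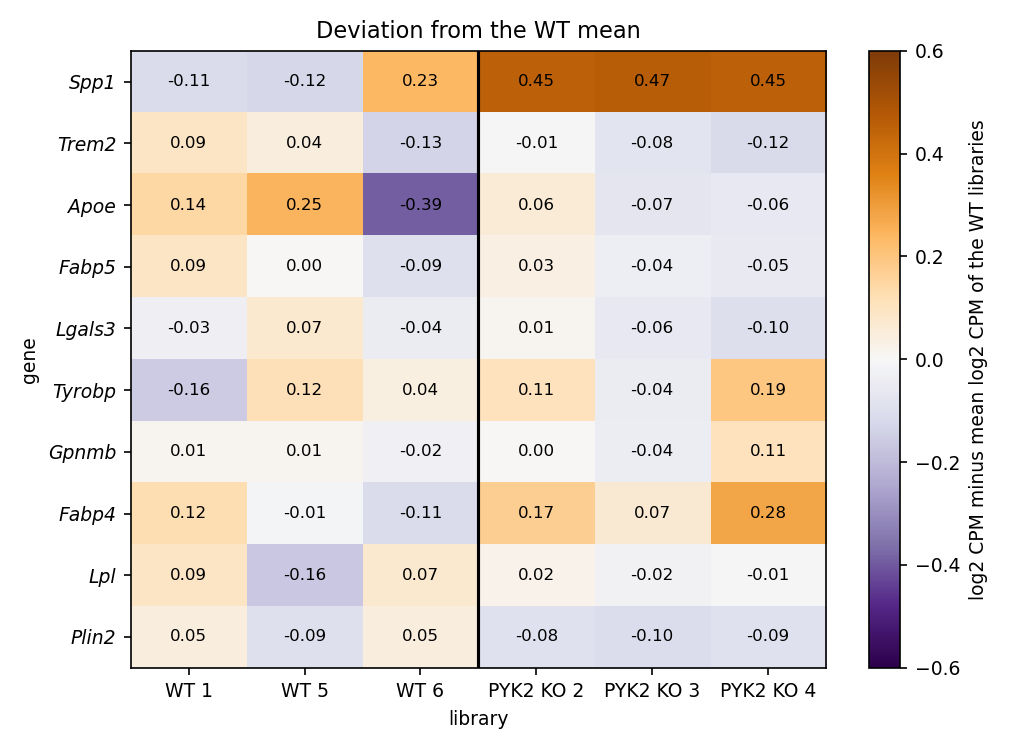
Log2 CPM of each gene in each library minus the mean log2 CPM of the 3 WT libraries, as cell numbers and color from violet (lower) to orange (higher). Spp1 is between 0.45 and 0.47 in the PYK2 KO libraries and at 0.23 in WT library 6, and the lowest value of all is that of Apoe in WT library 6, -0.39.

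Other genes of the program were read from lists, each described by its counts and its median. Receptors of the same family and the signaling and shedding genes of TREM2 (30 genes, 27 tested) had 0 past the threshold, with 2 at an unadjusted p-value under 0.05 (edgeR), against 6.03% of all genes tested, and a median log2 fold change of -0.02. Ms4a6d, of a family of membrane proteins linked to TREM2, had a log2 fold change of 0.51 (adjusted p = 0.580, edgeR), with 85.6, 58.5 and 55.4 CPM in the WT libraries and 70.9, 101 and 115 CPM in the PYK2 KO ones. Ms4a6d passed without a filter on low counts (0.51, adjusted p = 0.000439) and with the first component as a covariate (0.52, adjusted p = 0.00769). Both settings passed more genes in all than the fit reported here, and the covariate was derived from these same counts. In the other 13 settings Ms4a6d did not pass. Pik3ap1, an adaptor of PI3-kinase, was at 217 ± 3.33 CPM in the WT libraries and 193 ± 3.78 CPM in PYK2 KO BMDMs (mean ± SD, n = 3 libraries each). Its genotypes did not overlap, as in 10.2% of all genes tested, but it did not pass (log2 fold change -0.17, adjusted p = 0.787, edgeR). Treml2, a receptor of the TREM family, had a log2 fold change of 0.45 (adjusted p = 0.844, edgeR). The adaptors Grb2 (0.01) and Lat2 (-0.02), which had the highest mean CPM of this list, had these log2 fold changes with intervals around 0.

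Among 32 other markers of lipid-associated macrophages, all tested, 1 passed and the median log2 fold change was 0.0072. Ccl6, a CC chemokine of macrophages, rose from 623 ± 14.6 CPM in WT to 809.6 ± 18.7 CPM in PYK2 KO BMDMs (mean ± SD, n = 3 libraries each). Its values were 607, 627 and 636 CPM in the WT libraries and 793, 806 and 829.8 CPM in the PYK2 KO ones, with no overlap, and its log2 fold change was 0.38 (adjusted p = 0.0485, edgeR) with a standard error of 0.07. It no longer passed when any of the 6 libraries was left out, with log2 fold changes from 0.36 to 0.39 and adjusted p-values from 0.0869 without WT library 1 to 0.315 without WT library 5 (edgeR). There were 5 genes at an unadjusted p-value under 0.05 (edgeR), against 6.03% of all genes tested. They are named here after their values were seen. Besides Ccl6 these were Cd36, a fatty acid and lipoprotein receptor, with a log2 fold change of 0.74, Cst7 with 0.38, Cd52 with 0.20 and Cadm1 with -0.27, and their adjusted p-values were between 0.697 and 0.772. Cd36 also passed without a filter (0.74, adjusted p = 0.00226, edgeR) and with the first component as a covariate (0.78, adjusted p = 0.0130). Both settings passed more genes in all than the fit reported here. The Cd36 values of 27.1, 15.4 and 10.5 CPM in the WT libraries and 18.3, 31.5 and 41.1 CPM in the PYK2 KO ones overlapped. Lysozyme (Lyz2) and the ferritin heavy chain (Fth1), the list's genes with the highest mean CPM, had log2 fold changes of 0.08 and -0.08.

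Of 42 genes of lipid droplets, fatty acids and cholesterol, 25 passed the filter on low counts and 0 passed the test. The list had 2 genes at an unadjusted p-value under 0.05 (edgeR), against 6.03% of all genes tested. Its median log2 fold change was -0.03. Lipe, which encodes hormone-sensitive lipase, averaged 32.4 ± 1.94 CPM in the WT libraries and 24.7 ± 2.66 CPM in the PYK2 KO ones (SD, n = 3 each), a log2 fold change of -0.39 (adjusted p = 0.627, edgeR). Acsl4, which activates polyunsaturated fatty acids, was at 25.3, 24.1 and 25.9 CPM in the WT libraries and 34.3, 28.1 and 34.9 CPM in the PYK2 KO ones, a log2 fold change of 0.37 (adjusted p = 0.661, edgeR). In both the genotypes did not overlap, while neither passed over all genes tested. The list had 3 genes without overlap among its 25 tested, against 10.2% of all genes tested. Mgll, monoacylglycerol lipase, had a log2 fold change of -0.72 (adjusted p = 0.853, edgeR) on means of 5.41 CPM (WT) and 3.32 CPM (PYK2 KO). The lipoprotein receptors Lrp1 and Scarb1, with the highest mean CPM of the list, had log2 fold changes of 0.0016 and -0.01, and of the 17 genes not tested 11 had 0 counts in every library, Plin1 among them.

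Transcription factors of the program (21 genes, 20 tested) had 0 past the threshold, 0 at an unadjusted p-value under 0.05 (edgeR) and a median log2 fold change of -0.07, which was -0.0098 with WT library 1 left out and -0.019 with PYK2 KO library 4 left out. Cebpa (0.22), Tfe3 (0.15), a factor of lysosomal genes, and Nr1h3 (-0.37), which encodes the oxysterol sensor LXRα, had the smallest p-values, with adjusted p-values of 0.880, 0.882 and 0.896 (edgeR). Leaving out PYK2 KO library 2 moved Cebpa to 0.089 and Nr1h3 to -0.66, leaving out WT library 6 moved Cebpa to 0.14, and leaving out PYK2 KO library 4 moved Nr1h3 to -0.25. Cebpb and Spi1, which encodes PU.1, had the highest mean CPM and log2 fold changes of -0.09 and -0.18.

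Receptors and partners of osteopontin, GPNMB and galectin-3 (16 genes, 13 tested) also had 0 past the threshold, 0 at an unadjusted p-value under 0.05 (edgeR) and a median log2 fold change of 0.01, which turned below 0 when WT library 1 was left out (-0.011), and likewise for PYK2 KO library 3 (-0.045) and for PYK2 KO library 4 (-0.022). The smallest p-values were those of the integrin chains Itgb5 (-0.17) and Itgb3 (-0.19), which pair with the αv chain to bind osteopontin, and of Lgals3bp (-0.20), a secreted ligand of galectins, with adjusted p-values of 0.894, 0.896 and 0.903 (edgeR). Lgals3bp had 300.3, 341 and 224 CPM in PYK2 KO libraries 2, 3 and 4, and its log2 fold change was -0.046 without PYK2 KO library 4 and -0.34 without PYK2 KO library 3. Itgb1 and the lysosomal protein Lamp1, a glycoprotein that binds galectin-3, had log2 fold changes of 0.06 and -0.08. A higher Spp1 level was thus measured without a change that passed in any tested gene of this list.

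**Figure D4:**
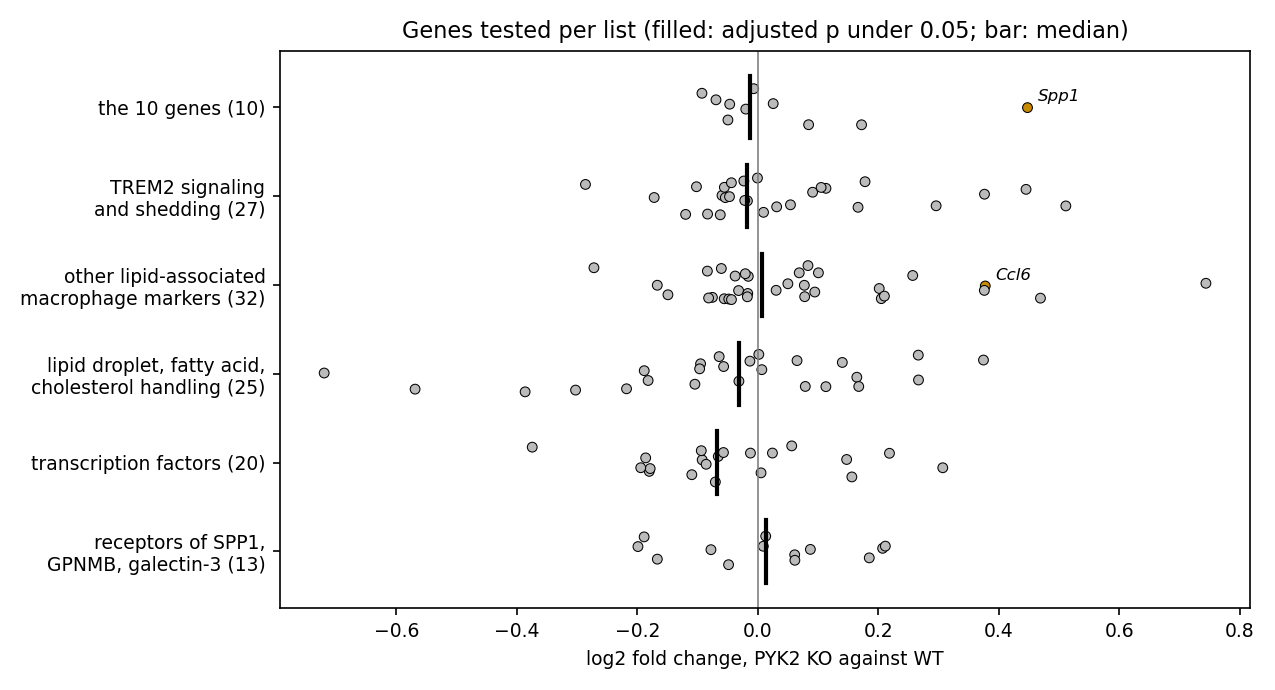
Log2 fold changes of PYK2 KO against WT BMDMs for the tested genes of the 10 genes and of 5 related lists, with the number tested in brackets. Bars are medians, which lie between -0.07 and 0.01, and the filled points are Spp1 (0.45) and Ccl6 (0.38), the genes past the adjusted p-value of 0.05.

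Spp1 is also made by osteoclasts, by stromal cells and, at lower levels, by other myeloid cells, so markers of such cells are given beside it. The osteoclast list (10 genes, 6 tested) had a summed level of 143 to 158 CPM in the WT libraries and 136 to 139 CPM in the PYK2 KO ones, below the WT range. Calcr and Ocstamp were at 0 in every library, and 0 genes passed. The list had 1 gene at an unadjusted p-value under 0.05 (edgeR), against 6.03% of all genes tested. This was Ctsk, named after its value was seen, with a log2 fold change of -0.39 (adjusted p = 0.674). Stromal markers (8 genes) had at most 5 counts in any library and 0 tested genes, with Col3a1, Dcn, Lum and Pdgfra at 0 throughout. The neutrophil list (8 genes, 6 tested) had a summed level of 219 to 315 CPM in the WT libraries and 257 to 457 CPM in the PYK2 KO ones, which overlapped, with Ly6g at 0 in all libraries but 1. In that list 0 genes passed and 3 were at an unadjusted p-value under 0.05 (edgeR), against 6.03% of all genes tested. These were S100a9 (log2 fold change 0.85), Mpo (1.19) and Mmp8 (0.44), named after their values were seen. The other tested genes of the list, Camp, Ltf and S100a8, had log2 fold changes of -0.26, -0.09 and 0.10, and the part of these genes in the Spp1 result was not tested. In the dendritic cell list 0 of 8 genes had enough counts to be tested, and in the B cell list 1 of 8, with a log2 fold change of -0.24. Within the Spp1 gene the annotation holds another transcript unit on the same strand, Gm42793, to which at most 1 count was assigned in any library.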

How the data were processed

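Bulk RNA-seq of 3 WT and 3 PYK2 KO BMDM libraries was used. The deposited values are raw counts by gene, not normalized by the authors, mapped and counted with the UTAP pipeline. The submitters' processing notes name cutadapt, STAR and mm10 (GRCm38), with no versions. Whether molecular identifiers were collapsed is not given in the sources used here. Intervals rest on the spread between the libraries. Columns were matched to samples by name (0 columns of other samples). In R 4.3.3 with edgeR 4.0.16, all genes were filtered (filterByExpr), scaled (TMM) and tested on genotype by quasi-likelihood (threshold 0.05 after Benjamini-Hochberg adjustment). A standard error is the absolute log2 fold change over the square root of F, and 95% intervals from the t distribution. The test was tried on simulated data first. Alternatives used DESeq2 1.42.0, limma 3.58.1 and other scalings and filters, and left out each library. Totals of 2857097 to 3917207 counts per library set the precision. Members and lists were chosen with earlier results of these data known. Named were all 10 members and, per list, the genes past the threshold, or else the 3 with the smallest p-values, plus the 2 with the highest mean CPM. Positions came from GENCODE M21 by symbol.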

Additional observations from a re-analysis of the deposited data

How the results depend on the processing

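No paired analysis was possible because the genotypes have no replicate number in common (WT 1, 5, 6 and PYK2 KO 2, 3, 4).

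With 3 libraries a genotype, differences smaller than the intervals given were not detectable. The number of genes past the threshold was 25, and it was 45 with the likelihood ratio test, 159 without a filter and 62 with a covariate, the residuals' leading component. Leaving out a library gave 14 to 34, with the low counts of 15 (WT library 5 left out), 15 (PYK2 KO library 2) and 14 (PYK2 KO library 4). Spp1 was the gene of the 10 that passed in all 9 other settings, and from 0 to 1 of the 10 passed with one library left out, where fewer samples entered. Its log2 fold change ran from 0.38 to 0.57 in those fits. In the other lipid-associated marker list 1 gene passed, 2 without a filter and 2 with the covariate, and 0 in each fit that left out a library (from 0 to 0). In the TREM2 signaling list 1 passed without a filter and 1 with the covariate. The causes were not tested.

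Of 150 values of the 10 genes, 137 kept direction and side of the threshold, 5 were weaker (Spp1, with a library left out) and 8 changed sign, all in genes whose intervals include 0. Lpl changed sign with upper quartile scaling (0.0020). With each library left out in turn the log2 fold changes spanned 0 in 4 of the 10 genes, from -0.22 to 0.075 (Apoe), -0.086 to 0.041 (Lpl), -0.064 to 0.025 (Fabp5) and -0.017 to 0.056 (Gpnmb). Without a sign change, 1 left-out library moved Trem2 to between -0.13 (WT library 6) and -0.024 (WT library 1), Tyrobp to between 0.010 (WT library 1) and 0.15 (PYK2 KO library 3) and Lgals3 to between -0.078 (PYK2 KO library 2) and -0.0093 (WT library 5). Of 359 values of the 24 genes named by the rule besides the 10, 336 kept direction and side, 6 were weaker (Ccl6, with a library left out), 2 stronger (Ms4a6d, given above) and 15 changed sign. Lrp1 changed sign with limma-voom (-0.00094), without a filter (-0.0054) and with the covariate (-0.00093), and with each library left out 5 genes spanned 0, from -0.055 to 0.0496 (Lrp1), -0.11 to 0.032 (Lat2), -0.024 to 0.041 (Grb2), -0.0698 to 0.029 (Scarb1) and -0.22 to 0.035 (Cebpb). Among those 24 genes, other values that a left-out library moved by over 1.5 times with the same sign, each shown at its largest move, were Cebpa, Nr1h3 and Lgals3bp (given above), Mgll (-1.09 without PYK2 KO library 2), Spi1 (-0.039 without PYK2 KO library 4), Itgb5 (-0.098 without WT library 1), Fth1 (-0.032 without WT library 5), Lamp1 (-0.029 without WT library 1) and Itgb1 (0.032 without PYK2 KO library 4). Hcst, Cst7, Cd52, Cadm1, Ctsk, S100a9, Mpo and Mmp8 were not followed singly through the alternatives, and of Cd36 only the settings in which it passed are given above. Of 89 list medians and shares of counts, 10 moved by more than the spread between libraries, all of them medians. With a library left out the medians ran from -0.022 to 0.00067 (TREM2 signaling), -0.036 to 0.044 (other markers), -0.060 to -0.0020 (lipid handling), -0.080 to -0.0098 (transcription factors) and -0.045 to 0.028 (receptors), and without a filter lipid handling was at -0.062.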
